A study of Mus musculus with 15 samples.

Results

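The bile acid and organic anion transporters of the liver were followed here through 10 genes, chosen by name: the uptake carriers Slc10a1, Slco1a1, Slco1a4 and Slco1b2, the canalicular pumps Abcb11, Abcb4 and Abcc2, the sinusoidal export pumps Abcc3 and Abcc4, and the nuclear receptor Nr0b2. All 10 of them were found among the 22032 gene symbols of the array, through 11 probes. The RNA came from whole livers of male CD1 mice, an outbred strain, and was hybridised with 1 dye to Agilent SurePrint G3 Mouse arrays. Group C received saline, and groups T and G received 25 µg of diethylnitrosamine (DEN, a liver carcinogen) per g body weight 15 days after birth. Every mouse then had plasmid delivered to the liver each week from week 28 to week 34 by hydrodynamic gene delivery (HGD, a rapid injection of a large volume), with 50 µg of plasmid each time, and livers were taken at week 35. Groups C and T got the empty plasmid and group G got pcDNA3/CAG-HAGas1, so that all groups share HGD and plasmid backbone, and no group is untreated. The sample labels give an age of 10 weeks, which is not the age at which the study took the livers.

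The CAG promoter of the plasmid is active in most cell types, and HGD reaches only some of the cells, mostly near vessels, so a group G liver mixes transfected and untransfected cells. The 15 arrays were taken as 13 mice, with n = 3 for C, n = 4 for T and n = 6 for G, after the arrays C3 and C4 and the arrays T4 and T5, which carried 1 RNA code each, were averaged and are written C3 and T4 below. The sources used here do not say whether these pairs are repeat hybridisations of 1 RNA. If each of the 15 arrays stood for its own mouse, the calls of limma would include Abcb4 (adjusted p = 0.0148) and Abcc3 (0.0392) for G minus T and Abcc2 (0.0216) for G minus C, none of them called over 13 mice. Values are quantile-normalised log2 intensities, differences are log2 differences between group means, and a gene was called when limma's adjusted p over all 22032 genes was under 0.05. In whole-liver RNA, fewer cells of a type and less RNA per cell cannot be told apart. Levels of different probes are not comparable, so each gene is compared only with itself.

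Hepatocytes take up bile acids and organic anions from sinusoidal blood, conjugate them and export them across the canalicular membrane into bile. Bile acids that enter the cell activate the nuclear receptor FXR (Nr1h4), which induces Nr0b2 (SHP), a repressor of bile acid synthesis, and also induces the canalicular pumps. When canalicular export is impaired, sinusoidal pumps of the Abcc family can return the same substrates to blood.

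The Gas1 gene of the array read 6.53 ± 0.20 (SD, n = 3) in C, 6.54 ± 0.09 (n = 4) in T and 6.61 ± 0.11 (n = 6) in G, and G minus T was 0.08 (adjusted p = 0.768). Whether its probes lie within the coding sequence of the plasmid was not tested, so this is no check of the labels. The arrays had 15707 to 29765 spots well above background, and no spot was saturated. The number of livers limits the precision.

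None of the 10 members was called in any of the 3 comparisons. For T minus C the background was 2.38% of all genes, for G minus T 0.127% and for G minus C 0.427%. At an unadjusted p under 0.05, limma marked 1 member for T minus C (Abcc3) where 20.3% of all genes were marked. It marked 3 for G minus T (Abcb4, Abcc3 and Abcc2) against 10.9% of all genes, and 4 for G minus C (Abcc2, Abcb4, Nr0b2 and Abcc4, the last with group means under the background floor) against 13.2%. The methods' t-test with equal variances called none of them either after Benjamini-Hochberg adjustment, and at an unadjusted p under 0.05 it marked 1, 2 and 3 members in the same order of comparisons, where 3846, 2302 and 2218 of the 22032 genes were marked. Groups C and T overlapped for every member, where 19.1% of all genes did not overlap.

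**Figure D1:**
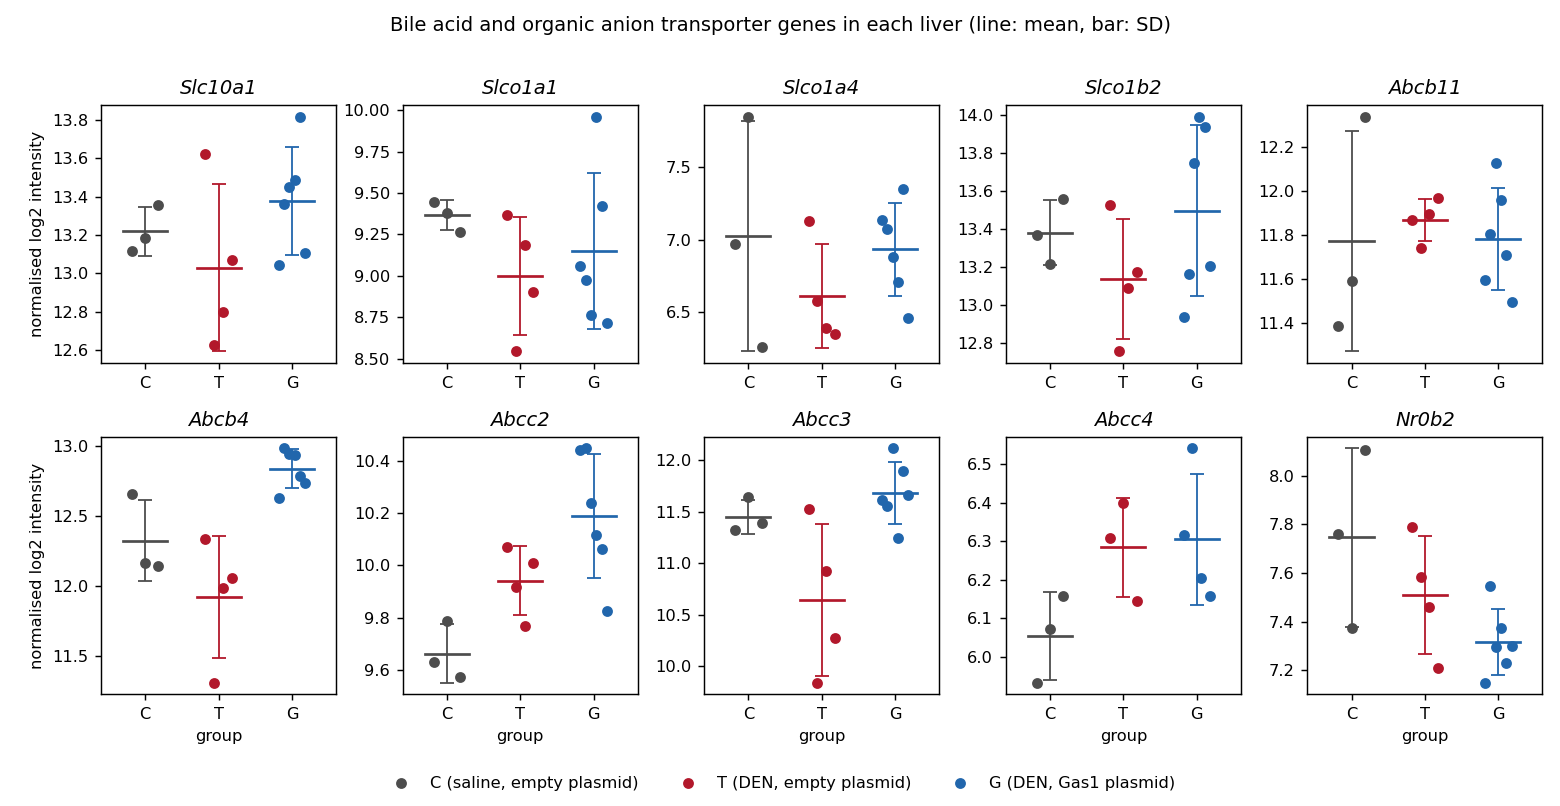
Normalised log2 intensity (y axis) of each of the 10 genes in each liver, by group (x axis). Points are livers, horizontal lines are group means and bars are 1 SD. For Abcb4 the 6 livers of group G, from 12.63 to 12.98, all lie above the 4 of group T, from 11.31 to 12.33.

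T minus C differences of the 4 uptake carriers ran from -0.42 to -0.19, none of them called. Slc10a1 (NTCP) carries conjugated bile acids into the hepatocyte with sodium. The array has a pair of probes for it, and they are printed because their values diverge. The first 30 bases of the one that the array design lists for 4 genes (Slc10a1, 4930402H24Rik, Spc24 and Med16), and all 60 bases of the one listed for Slc10a1 alone, are as follows on build mm9, minus strand, chr12:82056569-82056598 and chr12:82061470-82061529.

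A_55_P1954987: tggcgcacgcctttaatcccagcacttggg

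A_52_P69109: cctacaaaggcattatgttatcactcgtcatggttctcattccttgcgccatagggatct

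Of the 55681 probes on the array, 3 others share a run of at least 20 bases with the probe listed for 4 genes, and none does so with the one listed for Slc10a1 alone. They start at positions 1386 and 598 of the transcript. On the probe listed for Slc10a1 alone, livers C1, C2 and C3 read 10.95, 10.95 and 11.05. On it livers T1 to T4 read 10.80, 10.24, 10.20 and 10.53, all below group C. Of all genes, 19.1% had no overlap between groups C and T, and this probe was singled out after seeing the data. The 6 livers of group G lay between 10.31 and 11.20 on that probe and overlapped both other groups. The T minus C difference was -0.54 ± 0.20 (SE) with an adjusted p of 0.162 in limma's fit over 29522 probes. It was -0.64 within the first slide and -0.49 within the second. The arrays averaged as C3, like those averaged as T4, lay on different slides. As each pair is taken as 1 mouse, values within the slides are not independent, here and below. The probe listed for 4 genes gave 0.16 ± 0.39 (adjusted p = 0.874) for the same comparison, with group T spread from 15.01 to 16.44. The gene value of Slc10a1, which averages both probes, was -0.19 ± 0.22 (adjusted p = 0.684) for T minus C.

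**Figure D2:**
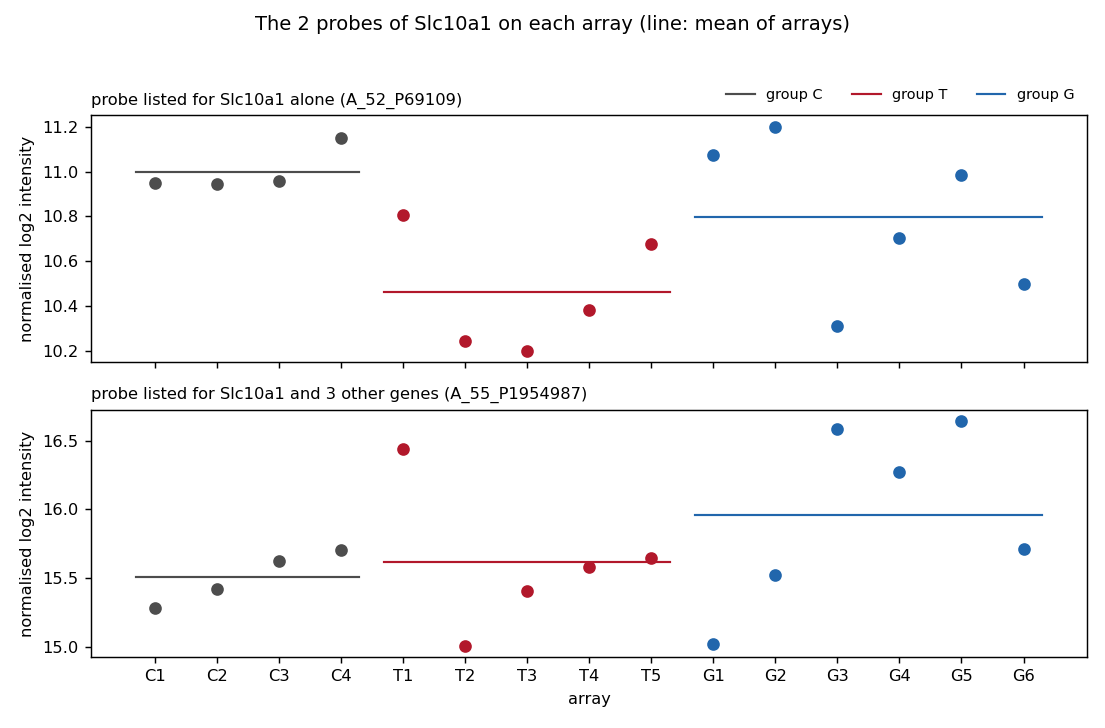
Normalised log2 intensity (y axis) of the 2 probes of Slc10a1 on each of the 15 arrays (x axis). Lines are means over the arrays of a group. On the probe listed for Slc10a1 alone all 5 arrays of group T lie below all 4 of group C, while on the probe shared with 3 other genes the groups overlap. Arrays C3 and C4 share an RNA code, as do T4 and T5, so the arrays were not taken as separate mice.

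Slco1a1 (OATP1A1) takes up organic anions and is a male-predominant gene of mouse liver. Livers C1 to C3 read 9.45, 9.38 and 9.27, livers T1 to T4 read 9.37, 8.54, 9.19 and 8.90, and group G ran from 8.72 to 9.96 with a median of 9.02. The 3 livers of group C lay within 0.18 of each other, while those of groups T and G spread over more than that. T minus C was -0.37 ± 0.27 (adjusted p = 0.486) and G minus T was 0.15 ± 0.22 (adjusted p = 0.859).

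Slco1b2 (OATP1B2), the liver-restricted carrier of bilirubin conjugates and unconjugated bile acids, read 13.37, 13.22 and 13.56 in group C. It read 13.52, 12.76, 13.09 and 13.18 in T1 to T4, and from 12.94 to 13.99 with a median of 13.48 in group G. T2 was the lowest liver of the series for this gene, and all groups overlapped. Its differences were -0.24 ± 0.25 for T minus C (adjusted p = 0.648) and 0.36 ± 0.21 for G minus T (adjusted p = 0.575).

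Slco1a4 (OATP1A4), which carries cardiac glycosides and organic anions, was the most variable member, with a within-group SD of 0.47. Group C alone spanned 6.26 to 7.85, group T 6.35 to 7.13 and group G 6.46 to 7.35. Its probe was not well above background on the arrays C4 and T5. The differences were -0.42 ± 0.32 for T minus C (adjusted p = 0.511) and -0.09 ± 0.29 for G minus C (adjusted p = 0.933).

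None of the 3 canalicular pumps was called in any comparison. Abcb11 (BSEP), the main exporter of bile acids into bile, had almost equal means, 11.77 ± 0.50 (SD, n = 3) in C, 11.87 ± 0.09 (n = 4) in T and 11.78 ± 0.23 (n = 6) in G. Its G minus C difference was 0.01 with a 95% interval from -0.38 to 0.40, so a difference of that size either way is not excluded by these livers. The liver C3, at 12.33, was the highest of all 13 livers for Abcb11 and C1, at 11.39, the lowest, so group C enclosed both other groups.

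Abcb4 (MDR2), which moves phosphatidylcholine into bile and so keeps bile acids from damaging the duct cells, gave the smallest p of the members in any comparison. C1, C2 and C3 read 12.65, 12.16 and 12.15. T1 to T4 read 12.33, 11.31, 11.98 and 12.06. G1 to G6 read 12.63, 12.98, 12.94, 12.93, 12.79 and 12.74. All 6 livers of group G were above all 4 of group T, which was the case for 3.13% of all genes in either direction, and Abcb4 was the only member for which groups T and G did not overlap. G minus T was 0.91 ± 0.17 (95% interval 0.55 to 1.28, a 1.89-fold ratio of group means), with an adjusted p of 0.0646 in limma's fit, short of the threshold. The call depended on single choices: the adjusted p was 0.0254 with the slide as a term, 0.036 after leaving out dim probes, 0.0212 without T1 and 0.0485 without C1. It was 0.101 without T2, the lowest liver, where the difference was 0.71. Within slides it was 1.22 (first) and 0.65 (second), with adjusted p of 0.173 and 0.261. T minus C was -0.40 ± 0.20 (adjusted p = 0.283) and G minus C 0.51 ± 0.18 (adjusted p = 0.248).

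The 60 bases of the Abcb4 probe (mm9, plus strand, chr5:8959108-8959167) and the 250 bases before the start site of Abcb4 (RefSeq, GRCm38.p6, plus strand, chr5:8893471-8893720) are shown since this gene separated groups T and G.

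Abcb4 probe A_51_P249118: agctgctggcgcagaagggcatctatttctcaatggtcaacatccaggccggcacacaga

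Abcb4 promoter: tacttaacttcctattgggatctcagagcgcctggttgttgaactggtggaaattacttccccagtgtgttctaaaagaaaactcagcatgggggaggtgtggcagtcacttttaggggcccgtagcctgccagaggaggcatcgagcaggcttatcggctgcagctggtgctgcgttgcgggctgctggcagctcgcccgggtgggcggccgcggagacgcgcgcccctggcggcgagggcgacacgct

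Abcc2 (MRP2), the canalicular pump for bilirubin glucuronides and other conjugates, read 9.63, 9.79 and 9.57 in C1 to C3. Livers T1 to T4 read 10.07, 9.92, 9.77 and 10.01. Livers G1 to G6 read 10.44, 10.45, 10.24, 10.12, 10.06 and 9.83. All 6 livers of group G lay above all 3 of group C, a separation that 5.86% of all genes showed, and T3 lay within the range of group C. Abcc2 G minus C was 0.53 ± 0.12 (95% interval 0.26 to 0.79, 1.44-fold) with an adjusted p of 0.0924. Without G6, the lowest of its group, it was 0.60 with an adjusted p of 0.025, and with the slide as a term 0.53 with an adjusted p of 0.0474. Within the slides it was 0.42 (adjusted p = 0.641) and 0.67 (adjusted p = 0.109). T minus C was 0.28 ± 0.13 (adjusted p = 0.268) and G minus T 0.25 ± 0.11 (adjusted p = 0.454).

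The 250 bases before the start site of Abcc2 (RefSeq, GRCm38.p6, plus strand, chr19:43782058-43782307) are shown as it separated groups C and G, with the motif matches in capitals.

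Abcc2 promoter: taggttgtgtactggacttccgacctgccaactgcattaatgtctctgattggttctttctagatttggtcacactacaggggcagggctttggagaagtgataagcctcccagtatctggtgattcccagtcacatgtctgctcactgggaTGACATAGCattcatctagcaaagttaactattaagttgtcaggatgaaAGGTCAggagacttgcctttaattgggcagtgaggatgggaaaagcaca

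The motifs searched on both strands were the nuclear receptor half-site AGGTCA, that half-site followed after 1 base by its reverse complement (the inverted repeat) or by a second copy (the direct repeat), the antioxidant response core TGACNNNGC and the TATA box TATAAA. The windows were the 250 bases before each start site in the RefSeq table, which held 9 of the 10 members and not Abcc3. The half-site was in 14% of all 32851 windows, the antioxidant core in 10.2% and the TATA box in 12.4%. The inverted and direct repeats, which contain the half-site, were in 0.00609% and 0.0335% of windows and in no window of a member. Abcc2 held 1 half-site and 1 antioxidant core, and Abcb4 held none of these motifs. Slco1a1 held 2 half-sites and 2 TATA boxes, and Abcb11, Slco1b2 and the second window of Slc10a1 held 1 half-site each. The TATA box was also found 2 times in Slco1b2 and 1 time each in the first window of Slc10a1 and in Nr0b2, and the antioxidant core in both windows of Abcc4. These matches are letters in a window and were not measured as bound sites.

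Abcc3 (MRP3) and Abcc4 (MRP4) export bile acid conjugates back to the blood. Abcc3 read 11.32, 11.64 and 11.39 in C1 to C3, and 11.52, 9.84, 10.93 and 10.27 in T1 to T4. Group G read 11.61, 11.55, 12.12, 11.25, 11.90 and 11.67 in G1 to G6. The livers T2, T3 and T4 lay below every liver of the other groups, and T1 lay within both. Abcc3 had the largest difference of the members for T minus C, -0.81 ± 0.32 (0.57-fold, adjusted p = 0.176), and for G minus T, 1.04 ± 0.27 (2.06-fold, adjusted p = 0.145). Without T1 both were called, at -1.10 (adjusted p = 0.0383) and 1.34 (adjusted p = 0.0261). Without T2 they were -0.54 (adjusted p = 0.33) and 0.77 (adjusted p = 0.356). Within slides T minus C was -1.48 and -0.44, and G minus T was 1.66 and 0.76. G minus C was 0.23 ± 0.29 (adjusted p = 0.79). Median scaling of the arrays turned Abcc3 T minus C to 0.19.

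**Figure D3:**
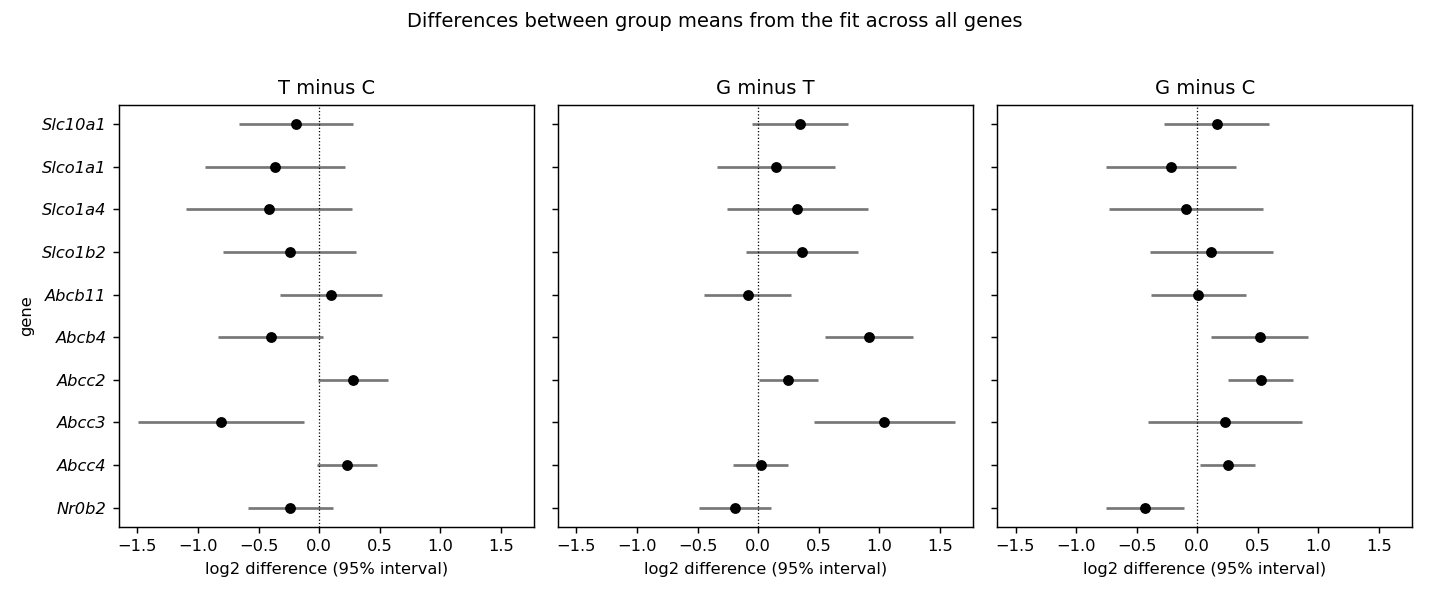
Log2 difference between group means (x axis) of each of the 10 genes (y axis) for the 3 comparisons, with 95% intervals from limma's fit across all genes. Intervals above 0 are those of Abcb4, Abcc3 and Abcc2 for G minus T and of Abcc2, Abcb4 and Abcc4 for G minus C. Those below 0 are Abcc3 for T minus C and Nr0b2 for G minus C. None of the genes shown passed the adjusted threshold.

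The Abcc4 probe was not well above background on any of the 4 arrays of group C, and it was so on 1 of 5 arrays of group T and 2 of 6 of group G. The spot was flagged as an outlier on T2, G4 and G5 and was left out of the fit there, and G4 and G5 are also the arrays of group G on which it was well above background. Over the livers left, the measured means were 6.05 ± 0.11 (SD, n = 3) in C, 6.28 ± 0.13 (n = 3) in T and 6.31 ± 0.17 (n = 4) in G. The dim-group floor, 6.36, was above the means of groups T and G, so no fold is given. All 3 group means lie below that floor, so no order of the groups is read from them.

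Nr0b2 (SHP), the target of FXR that lowers bile acid synthesis, read 7.76, 7.37 and 8.11 in group C. It read 7.79, 7.58, 7.46 and 7.21 in T1 to T4 and from 7.15 to 7.55 with a median of 7.30 in group G. Its mean was lowest in group G, and all 3 groups overlapped. G minus C was -0.43 ± 0.15 (adjusted p = 0.233), T minus C -0.24 ± 0.16 (adjusted p = 0.453) and G minus T -0.19 ± 0.14 (adjusted p = 0.649). Within slides G minus C was -0.41 and -0.64. Under median scaling it was 0.06, where the median of all genes was 0.09.

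Across the 10 members, 7 had a T minus C difference below 0, as did 47.9% of all genes. Their median T minus C difference was -0.24, against 0.01 over all genes. This direction depended on the scaling. Under cyclic loess 7 were also lower, with a median of -0.27. Under median scaling 10 of 10 were higher, with the median of all genes at 0.12, and there 4008 genes were called higher and 33 lower. With the processed signal scaled to the 75th percentile 6 were lower, but only 2 lay below the median of all genes, which was itself at -0.40. For G minus T 8 members were higher, against 46.1% of all genes, with a median of 0.29 against -0.01 (6 were higher under median scaling). For G minus C 7 were higher, against 48.8% of all genes, and 10 of 10 were under median scaling. For G minus T, 8 of the 10 were higher than the median of all genes under quantile, 75th percentile and median scaling, and 7 under cyclic loess. All these counts include Abcc4, whose group means lie below the background floor, and the Slc10a1 value that averages both probes. Without the Slc10a1 probe listed for 4 genes, 6 members were higher for G minus C. T minus C and G minus T share the livers of group T, so opposite signs in the 2 comparisons are no separate evidence.

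**Figure D4:**
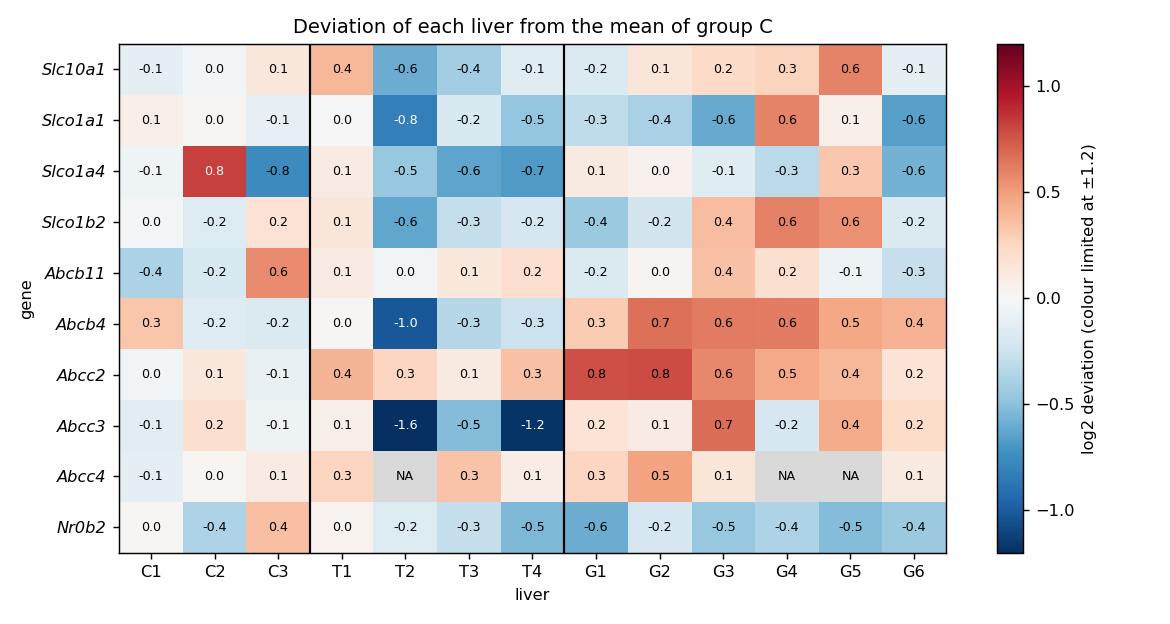
Log2 deviation of each liver (x axis) from the mean of group C for each of the 10 genes (y axis), with the value printed in each cell and grey cells where the spot was flagged. The deepest values are -1.61 (T2) and -1.18 (T4), both for Abcc3, followed by -1.01 for Abcb4 in T2, and the row of Abcb4 is above 0 in all 6 livers of group G.

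The livers of group T differed among themselves. T2 was the lowest of all 13 livers for 5 of its 9 measured members (Slc10a1, Slco1a1, Slco1b2, Abcb4 and Abcc3), while it was the lowest for 10.45% of 7945 genes detected on every array and measured in every liver. For Slc10a1 this holds for the gene value, and on the probe listed for it alone T3 (10.20) lay below T2 (10.24). By gene value T1 lay below the range of group C for none of the 10 members and above it for 3. On that Slc10a1 probe T1 (10.80) lay below group C. G2 was the highest liver for 3 members, Abcb4, Abcc2 and Abcc4. Abcc4 was measured in 10 livers only, and its probe was not well above background on G2. The share of all genes for which G2 was highest was not computed. The within-group SD of the members, from 0.14 for Abcc4 to 0.47 for Slco1a4, was above the median of the 8493 genes detected on every array, 0.16, in 9 of 10 cases.

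The genes whose level followed a member most closely over the livers were named by Pearson's r, as a description over livers that share groups and slides. Gm10639 (r = 0.954) was nearest to Abcc3, Adh4 (alcohol dehydrogenase, 0.897) and Gstm1 (glutathione transferase, 0.894) to Abcb4, and Gars (glycyl-tRNA synthetase, 0.924) and Ankrd11 (0.888) to Abcc2, each over 13 livers. Mapk1ip1 (0.953) and Cnot4 (0.941) were nearest to Slco1b2, Ptplb (0.907) and F13b (0.872) to Slco1a1, Lztfl1 (0.871) and Cdc42ep4 (0.848) to Slco1a4, and Col5a3 (0.901) and Nr1i3 (0.898) to Slc10a1. Pcp4l1 (0.881) and Ep400 (0.861) were nearest to Abcb11, Igfals (0.909) and 6720456B07Rik (0.906) to Nr0b2, and B3galt1 (0.955) and Tex264 (0.930), over 10 livers, to Abcc4, whose values lie near background.

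Of 20 other transporters of liver, 17 had a probe well above background on at least 1 array. In limma's fit 1 was called, for T minus C, where 2.38% of all genes were. At an unadjusted p under 0.05, limma marked 7, 4 and 6 for T minus C, G minus T and G minus C, against 20.3%, 10.9% and 13.2% of all genes. Slco2b1, an organic anion uptake carrier of the same family as the members, fell by 0.50 ± 0.11 in group T against C (adjusted p = 0.0408). It was 0.17 higher in G than in T (adjusted p = 0.552). The list's medians were 0.01, 0.00 and 0.01 for T minus C, G minus T and G minus C.

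None of 17 genes of bile acid synthesis and conjugation was called in any comparison, with 6, 4 and 2 at an unadjusted p under 0.05 for T minus C, G minus T and G minus C, where 20.3%, 10.9% and 13.2% of all genes were. For T minus C 13 of the 17 were lower, with a median of -0.25. Scp2, a peroxisomal thiolase of side-chain shortening, was at -0.29 (adjusted p = 0.107) and Cyp7b1, of the acidic synthesis pathway, at 1.13 (adjusted p = 0.117). For G minus T Hsd17b4, of side-chain oxidation, was at 0.31 (adjusted p = 0.373) and Cyp2c70, which makes muricholic acids, at -0.38 (adjusted p = 0.377). For G minus C Acox2 was at -0.23 (adjusted p = 0.265) and Cyp8b1, the sterol 12-hydroxylase, at -0.91 (adjusted p = 0.363).

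None of 19 regulators of bile acid genes was called either, with 5, 3 and 3 at an unadjusted p under 0.05, to be read against the same shares of all genes. Rxra, the partner of FXR, was at 0.35 (adjusted p = 0.0853) and Hnf4a at 0.38 (adjusted p = 0.101) for T minus C. Foxa3 was at -0.59 (adjusted p = 0.106) and Ppara at 0.35 (adjusted p = 0.328) for G minus T. For G minus C Ppara was at 0.43 (adjusted p = 0.201).

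**Figure D5:**
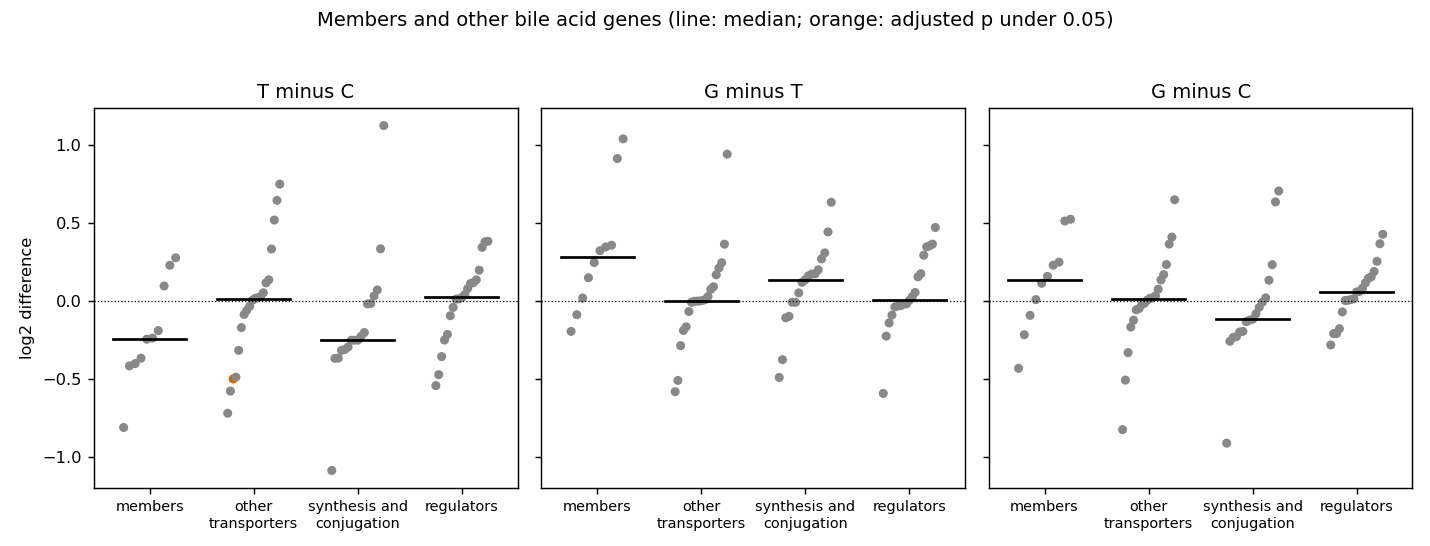
Log2 difference (y axis) of each of the 10 members, 20 other transporters, 17 genes of bile acid synthesis and conjugation and 19 regulators (x axis) for the 3 comparisons. Lines are list medians, and 1 point, Slco2b1 for T minus C, is past the adjusted threshold.

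Marker genes of the cell types of liver were compared in the same way, beside the 2.38% of all genes called for T minus C. All 12 hepatocyte markers were well above background on at least 1 array. Their mean level ran from 14.68 to 14.81 in group C, 14.47 to 14.74 in T and 14.44 to 14.81 in G. For T minus C 9 of the 12 were lower, and Ttr (transthyretin, -1.01, adjusted p = 0.00594) and Ass1 (-0.60, adjusted p = 0.0134) were called. The others were higher, the furthest being Apoa1 (0.54, adjusted p = 0.0686). Of 10 liver tumour markers 5 rose in T against C, by 5.12 for Tff3 and 2.47 for Afp, and by 0.49 to 1.75 for Gpc3, Scd2 and Tspan8. The mean of that list ran from 6.34 to 6.68 in C, 7.38 to 8.49 in T and 6.91 to 8.39 in G. Afp, Gpc3 and Tspan8 were well above background on 12, 9 and 9 of the 15 arrays. Their group C means, 6.15, 5.94 and 6.03, lie below the floor of 6.36 given for Abcc4, so the sizes of their differences are uncertain. Of 9 Kupffer cell and macrophage markers Emr1 rose (0.31, adjusted p = 0.0262), with list means of 7.25 to 7.54 in C and 7.47 to 7.86 in T. In that list 2 markers were lower in T than in C, Cd68 (-0.25, adjusted p = 0.101) among them. The group C mean of Emr1, 6.175, also lies below the floor of 6.36. None of the cholangiocyte, stellate cell, endothelial, lymphocyte, exocrine pancreas or erythroid markers was called in any comparison. The mean of the 10 cholangiocyte markers was 6.73 to 6.80 in C and 6.53 to 6.62 in T, and that of the erythroid markers 7.59 to 8.23 in C and 8.37 to 8.61 in T. The part of tumour tissue and of these cell types in the values of the transporters was not tested. Of 19 male-biased liver genes, a list that holds Slco1a1, 8 were lower in T than in C, and Cyp4a12a alone was called (-0.98, adjusted p = 0.019). Of 19 female-biased genes, a list that holds Slco1a4 and Abcc4, none was called.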

How the data were processed

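Liver RNA from groups C, T and G was labelled with 1 dye and scanned, and the authors deposited 1 scanner file per array with linear intensity per spot (Agilent Feature Extraction 10.7.3.1, per the file headers), and a table of background-corrected and quantile-normalised log2 values, which the authors made and which was used as an alternative only. The study corrected background with normexp and normalised by quantiles, and the same was done here from mean and background intensity with limma 3.58.1 in R 4.3.3 (offset 50), over 59305 spots that are not controls, with flagged spots left out (218 to 3692 per array). Spots of a probe were averaged, probes were centred and averaged per symbol (29522 probes, 22032 symbols), and arrays of 1 RNA code were averaged because the SD of their log2 differences, relative to that of the second most similar pair in the group, was 0.502 and 0.609 (limit 0.7). Groups came from the sample titles. No source says that the other samples of a group were pooled, and each was taken as 1 mouse, so p-values measure the spread between these samples.

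Each comparison was a contrast of group means in 1 limma fit over all genes (eBayes, Benjamini-Hochberg, threshold 0.05), tested on simulated data. There was 1 column of processed values per array and 0 columns of other samples. The 10 members and the gene lists were chosen with earlier results of these data known. The text names all members, the list genes called in any comparison or else the 2 with the smallest p, the 2 genes most alike to each member, and single probes of a member where they differ. Some genes that this rule names are not reported here. In all, 32 alternative settings were run, among them other scalings, slide as a term, each slide alone and each mouse left out. Probe positions are those of the array design (mm9), and 18911 symbols match a current RefSeq symbol. Promoters are from RefSeq (GRCm38.p6). Scan time and slide coincide, and each of the 2 slides held all groups. Fits within a slide used single arrays, and the arrays of each averaged pair lay on different slides. The labels give TRIzol as the extraction method.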

Additional observations from a re-analysis of the deposited data

How the results depend on the processing

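Slide, scaling and single livers set how many genes passed. Against 525, 28 and 94 genes called for T minus C, G minus T and G minus C, the processed signal scaled to the 75th percentile called 56, 3 (2 higher and 1 lower, against 6 and 22) and 1 (higher, against 39 higher and 55 lower), median scaling 4041 (4008 higher and 33 lower, against 268 and 257), 8 and 0 (6533 at an unadjusted p under 0.05 for the last), and cyclic loess 185, 30 (12 higher and 18 lower) and 1 (higher). The 15 arrays taken as separate mice called 1947, 263 and 342, the slide as a term 799, 80 and 166, the first slide alone 48, 7 and 1, and the second alone 17, 4 and 3. The filter on dim probes called 86 and 154 for G minus T and G minus C, the brightest probe 43 for G minus T, fits to only the 2 groups compared 11 and 47, and a variance trend 16 and 46. The t-test per gene called 0, 5 and 1 with equal variances and 0, 1 and 0 with unequal variances, where 3846 and 2961 for T minus C and 2010 for G minus C passed unadjusted. Leaving out 1 mouse gave 89 to 761 genes for T minus C, 5 to 127 for G minus T and 0 to 182 for G minus C.

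No member was called in the fit reported above. With the arrays as separate mice 2 members were called for G minus T (Abcb4 and Abcc3) and 1 for G minus C (Abcc2), with the slide as a term 1 and 1, with the dim filter 1 for G minus T, and with median scaling 1 for T minus C (Abcc2). Leaving out 1 mouse gave 0 to 1 members for T minus C (1 without T1), 0 to 2 for G minus T (1 without C1, 2 without T1) and 0 to 1 for G minus C (1 without G6). Of the 13 pairs of arrays that share a replicate number, 4 had deviations correlated over 0.1 (-0.31 to 0.26). Pairs with different numbers were not compared, so these values cannot tell whether the numbers pair the mice. The fit with the replicate number as a block called 1581, 170 and 326 genes and 1 member in each comparison: Abcc2 (0.33) for T minus C, Abcb4 (0.91) for G minus T and Abcc2 (0.63) for G minus C.

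Signs turned for some differences and not for others, and the largest of T minus C (Abcc3, -0.81) was among those that turned. Under median scaling T minus C became 0.88 for Slc10a1, 0.54 for Slco1a1, 0.022 for Slco1a4, 0.77 for Slco1b2, 0.60 for Abcb4, 0.19 for Abcc3 and 0.33 for Nr0b2, G minus T became -0.0024 for Slco1a1 and -0.021 for Abcc4, and G minus C became 0.54 for Slco1a1, 0.38 for Slco1a4 and 0.064 for Nr0b2. The 75th percentile turned Slc10a1 T minus C to 0.0098, Slco1a4 G minus C to 0.12 and Abcb11 G minus C to -0.054. Cyclic loess turned Abcc4 G minus T to -0.018, Slco1a4 G minus C to 0.11 and Abcb11 G minus C to -0.00996. The brightest probe turned Slc10a1 T minus C to 0.16, and the single-gene probe alone, chosen after seeing the data, turned Slc10a1 G minus C to -0.19. Flagged spots kept turned Abcb11 G minus C to -0.000503. The arrays as separate mice turned Abcb11 T minus C to -0.023, Slco1a4 G minus C to 0.10 and Abcb11 G minus C to -0.13, and the slide term turned Abcb11 G minus C to -0.013. The first slide alone turned Abcb11 to -0.13, 0.021 and -0.10 in the 3 comparisons, and the second turned Slco1a4 T minus C to 0.0077, Slco1a1 G minus T to -0.0085, and for G minus C Slco1a4 to 0.57, Slco1b2 to -0.085 and Abcb11 to -0.16. The replicate block turned Abcb11 T minus C to -0.022, Slco1a4 G minus C to 0.18 and Abcb11 G minus C to -0.072. Over the mice left out, ranges that cross 0 were Abcb11 T minus C -0.095 to 0.38, Slco1a1 G minus T -0.012 to 0.27, Abcc4 G minus T -0.059 to 0.077, Slco1a4 G minus C -0.47 to 0.32 and Abcb11 G minus C -0.18 to 0.29. The cause was not tested. Abcb4 and Abcc3 G minus T and Abcc2 G minus C kept their direction under all 32 settings (0.65 to 1.22, 0.76 to 1.66 and 0.42 to 1.29). Some settings, such as the variance trend or a mouse left out of the third group, cannot move these differences. The highest adjusted p was 0.668 for Abcb4 and for Abcc3, under median scaling, and 0.6415 for Abcc2, on the first slide alone. These 3 differences were singled out after seeing the data.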
